A study of Mus musculus with 20 samples.

Results

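The genes described here encode the subunits of oxidative phosphorylation, of which 94 were present among the 16411 genes measured in a mouse breast tumour series. They were chosen by name among protein-coding genes, with the name stems of the subunits of complexes I to V. The 94 genes split into 13 encoded in mitochondrial DNA, whose names start with mt-, and 81 encoded in the nucleus. Another 4 names fitted the stems but were not protein coding and were not used. All 94 passed the filter on low values.

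The libraries hold poly(A) RNA of breast tumours grown as allografts in mice, and the values are log2 CPM, the log of read counts scaled to library size. MDA594 tumours are sensitive to PARP inhibitors, which block an enzyme of DNA break repair, and MDA594OR1 and MDA594OR2, called OR1 and OR2 below, are resistant to the PARP inhibitor olaparib. There were 4 untreated MDA594 libraries, 3 olaparib-treated MDA594 libraries, 3 untreated and 4 treated OR1 libraries, and 2 untreated and 3 treated OR2 libraries. Each resistant tumour is 1 line, so a difference from MDA594 describes that line. A further library was left out because its title and its treatment label disagree. Of the 19 libraries, 10 share the last code of their title with another library, so that 5 pairs probably come from 1 host each, and both untreated OR2 libraries are such a pair. The labels give no host strain, age or dosing schedule, and every p-value refers only to the variation among the libraries at hand.

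Oxidative phosphorylation couples electron transfer to ATP synthesis in the inner mitochondrial membrane. Complex I takes electrons from NADH and complex II from succinate, complex III passes them through cytochrome c to complex IV, which reduces oxygen, and complex V uses the proton gradient to make ATP. Complex II is encoded wholly in the nucleus, whereas the other complexes join nuclear subunits, imported after translation in the cytosol, to core subunits translated inside the mitochondrion. The mitochondrial genes are transcribed as long precursors from both strands and then cut apart.

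The libraries held between 36.8 and 118 M reads. Of 7 epithelial markers, 5 were in the table and summed to 1201 to 3888 CPM in every library, while Krt19 and Krt5 were not in the table. Tumour, host and blood cells were measured together, so fewer cells of a type and less RNA per cell cannot be told apart. The members' own values set 2 libraries apart. Untreated MDA594 library 1 had low nuclear subunits for its group, and treated OR2 library 3 had low mitochondrial transcripts. Over all 19 libraries the former was not the lowest, since its nuclear share of reads was 0.633% and that of treated OR2 library 1 was 0.632%. The main results that rest on these 2 libraries are given with and without them.

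The mitochondrially encoded transcripts varied far more between tumours than the nuclear subunits did. They took 13.3%, 8.73%, 10.7% and 11.5% of reads in the untreated MDA594 libraries and 6.24%, 8.24% and 8.33% in the treated ones. In OR1 they took 3.82%, 5.29% and 6.57% untreated and 11.9%, 6.36%, 11.2% and 5.96% treated. In OR2 they took 8.41% and 5.81% untreated and 11.3%, 8.82% and 2.59% treated. The 4 untreated MDA594 libraries lay above all untreated OR1 and OR2 libraries and above the treated MDA594 ones, while the treated OR1 libraries fell into 2 high and 2 low ones. The share thus spanned 5.15-fold, against 1.55-fold for the 81 nuclear genes, which took 0.632% to 0.976% of reads.

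**Figure D1:**
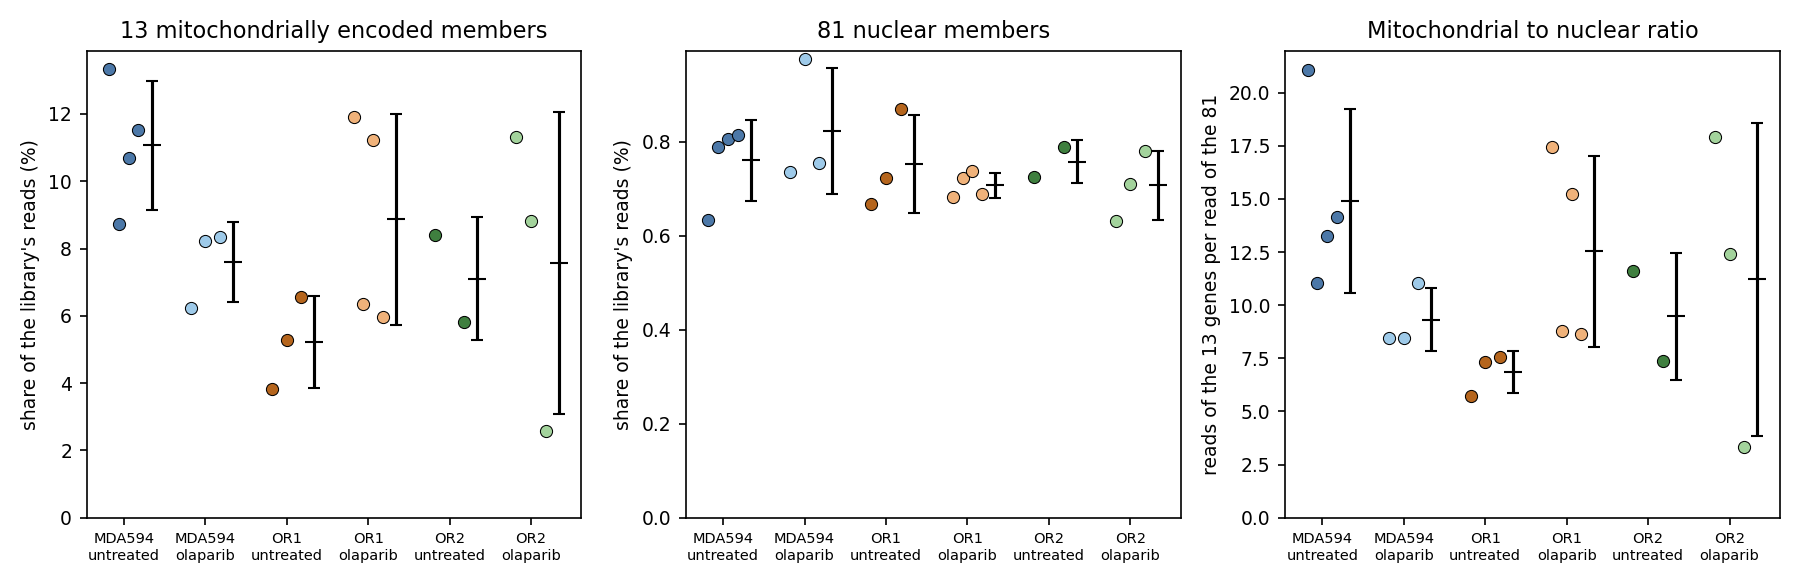
Share of reads from the 13 mitochondrially encoded members (percent), share from the 81 nuclear members (percent) and the ratio of the first to the second, for each of the 19 libraries by group; each dot is a library and the bars are the group mean and SD. The mitochondrial share ranges from 2.59% to 13.3%, the nuclear share from 0.632% to 0.976%.

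The group means of the mitochondrial share were 11.1% ± 1.91 (SD, n = 4) in untreated and 7.60% ± 1.18 (SD, n = 3) in treated MDA594, 5.22% ± 1.38 (SD, n = 3) and 8.86% ± 3.14 (SD, n = 4) in OR1, and 7.11% ± 1.83 (SD, n = 2) and 7.58% ± 4.50 (SD, n = 3) in OR2. The treated OR1 and OR2 groups had the widest spread. Within groups, the median SD of a gene's log2 CPM was 0.62 for the mitochondrial members and 0.23 for the nuclear ones, beside 0.31 over all genes and 0.23 over genes with a mean log2 CPM above 4. Even the pairs from a shared host code differed in their mean mitochondrial log2 CPM, by 0.22, 0.47, 0.54, 0.79 and 0.66, with all 13 transcripts on the same side in each pair. The nuclear mean of the same pairs differed by 0.02, 0.44, 0.26, 0.17 and 0.02.

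The ratio of mitochondrial to nuclear reads ranged from 3.32 to 21.1. The 3 highest ratios, 17.4 to 21.1, were those of untreated MDA594 library 1, treated OR1 library 1 and treated OR2 library 1, and the other 16 libraries lay between 3.32 and 15.2. The same 3 libraries had the lowest sums of red blood cell markers, 54.6 to 125 CPM against 212 to 2437 CPM in the others. All 3 also have library names of the ABA44 series, which 6 of the 19 libraries carry. The other ABA44 libraries had ratios of 5.73 and 7.31 (untreated OR1 libraries 1 and 2) and 11.06 (untreated MDA594 library 2). Treated OR2 library 3, with the lowest ratio, had a red cell sum of 280 CPM, near the low end of the others. The part of blood content or of the name series in the ratio was not tested.

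**Figure D2:**
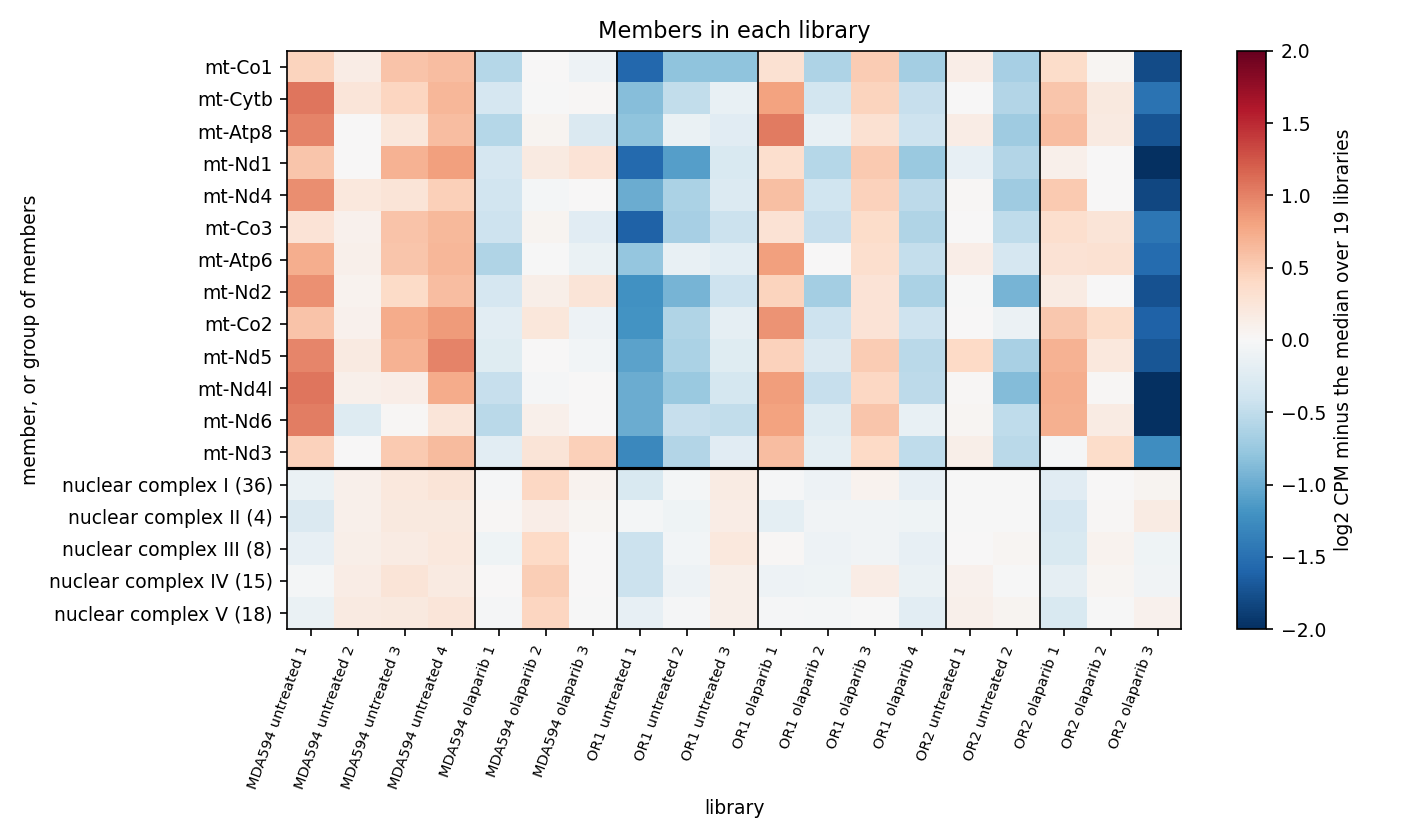
Log2 CPM of the 13 mitochondrially encoded members, and the median of the nuclear members of each complex, in the 19 libraries, each row minus its median over the libraries, with colours ending at ±2. The mitochondrial rows rise and fall together within a library, whereas the nuclear medians stay near 0.

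The 13 mitochondrial transcripts moved together within a library. All 13 lay above their own median over the libraries in untreated MDA594 libraries 1, 3 and 4 and in treated OR1 libraries 1 and 3. None did in treated MDA594 library 1, in any untreated OR1 library, in treated OR1 libraries 2 and 4, in untreated OR2 library 2 or in treated OR2 library 3. Per length, mt-Co1, the catalytic subunit of complex IV, was the most abundant, with a median of 16900 CPM per kb and 29.9% of all mitochondrial reads. The complex III subunit mt-Cytb followed with 10900 CPM per kb, then mt-Atp8 with 10560 and the complex I subunit mt-Nd1 with 7671. The lowest were the complex I subunits mt-Nd4l with 784 CPM per kb, mt-Nd6 with 717 and mt-Nd3 with 432, and mt-Nd6 is the one member read from the light strand. The reading frames of mt-Atp8 and mt-Atp6, both of complex V, overlap, as do those of mt-Nd4l and mt-Nd4, so the split of reads within these pairs is uncertain.

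In MDA594 tumours, olaparib was followed by no called change in any member in the fit over all 19 libraries, and 3 members were called with the title number as a term. mt-Co1 had log2 CPM of 15.12, 14.82, 15.24 and 15.28 untreated and 14.10, 14.67 and 14.57 treated. Every treated library was below every untreated one, and this held for 7 of the 13 mitochondrial transcripts, where 12.2% of all genes tested did the same. Because the 13 move together within a library, the 7 are not independent observations. The fitted log2 change of mt-Co1 was -0.63 (SE 0.60, limma adjusted p = 0.618), that of mt-Nd1 was -0.41 and that of mt-Cytb was -0.70. The median over the 13 was -0.61 and over the 81 nuclear members -0.01, beside 0.01 over all genes. Within the 13 libraries of the ABA45 name series the mitochondrial median was -0.68 and 10 members were called, and quantile normalization gave a median of -0.19. The shares of all genes called within this series or with the title number are not given. At adjusted p under 0.05 over all 19 libraries, 0 of the 94 members passed, where 0.0551% of genes passed higher and 0.0674% lower. At unadjusted p under 0.05, 0 mitochondrial and 3 nuclear members passed, all 3 higher, against 8.71% of all genes higher and 8.07% lower.

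The 3 nuclear members were Cox5a and Sdhb, whose treated libraries all lay above the untreated ones, and Ndufb8. Cox5a, a subunit of complex IV, had log2 CPM of 5.49, 5.71, 5.61 and 5.64 untreated and 5.94, 6.36 and 6.08 treated. Its log2 change was 0.51 (SE 0.17, limma adjusted p = 0.149). The other groups' Cox5a values, 5.27 to 5.83, all lay below the lowest treated MDA594 value. Sdhb, the iron-sulfur subunit of complex II, had a log2 change of 0.40 (limma adjusted p = 0.258), and Ndufb8, an accessory subunit of the membrane arm of complex I, one of 0.80 (SE 0.30, limma adjusted p = 0.199). Sdha, the flavoprotein of complex II, stood at 0.09, and Atp5f1b, the catalytic beta subunit of complex V, at 0.14.

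In the resistant lines olaparib moved no member past the threshold either. Treated OR1 had a median log2 change of 0.72 over the mitochondrial members and -0.04 over the nuclear ones, beside -0.01 over all genes, with 0 of 94 called where 0% of genes were called. Within the ABA45 name series the mitochondrial median was 0.18. mt-Co1 had log2 CPM of 13.10, 13.87 and 13.86 untreated and 14.97, 14.05, 15.18 and 13.99 treated. All 4 treated libraries lay above all 3 untreated ones, and 2 mitochondrial transcripts did so, beside 7.43% of all genes. In the other direction, 10 nuclear members had every treated library below every untreated one, beside 7.81% of genes. At unadjusted p, 4 nuclear members passed lower (1.59% of genes) and none higher (4.29%), among them Atp5po, a stalk subunit of complex V, at -0.65 (limma adjusted p = 0.778) and Atp5pf, another stalk subunit, at -0.51 (limma adjusted p = 0.786).

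In OR2 the medians after olaparib were -0.09 for the mitochondrial and -0.10 for the nuclear members, beside 0.00 over all genes, and again 0 of 94 members were called where 0% of genes were. No member reached unadjusted p under 0.05, where 3.28% of genes did so higher and 3.36% lower. The mitochondrial median rested on treated library 3. mt-Co1 stood at 14.81 and 14.01 in the untreated OR2 libraries and at 15.03, 14.72 and 12.88 in the treated ones, so that library 3 was the lowest of all 19. Library 3 was below both other treated OR2 libraries for all 13 transcripts and the lowest of all 19 for 11 of them. Without it the median was 0.55, and without untreated OR2 library 1 it was 0.24. Its nuclear members did not follow, since 42 of 81 were higher than in both other treated OR2 libraries and 19 were lower.

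The responses of the lines were then set against each other. The OR1 response exceeded the MDA594 response by a median of 1.28 on the log2 scale over the mitochondrial members (0.65 with quantile normalization) and differed by -0.08 over the nuclear ones, with no member called where 0% of genes were, and 1 member passed unadjusted p lower (4.16% of genes) and none higher (3.17%). The OR2 response differed from that of MDA594 by 0.51 and -0.11, also with no member called where 0% of genes were and none at unadjusted p under 0.05 (3.11% of genes higher and 3.05% lower), and without treated OR2 library 3 the mitochondrial median was 1.12. With quantile normalization it was -0.04. Both contrasts share the MDA594 libraries. For Atp5f1b the OR1 response was lower by 0.56 on the log2 scale than that of MDA594 (log2 difference -0.56, limma adjusted p = 0.677).

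Untreated OR1 tumours had less of all 13 mitochondrial transcripts than untreated MDA594 tumours in these libraries, though none passed the adjusted threshold. mt-Nd1 had log2 CPM of 13.39, 12.84, 13.54 and 13.67 in MDA594 and 11.28, 11.74 and 12.53 in OR1. The groups did not overlap for any of the 13, where 9.85% of all genes lay below in this way. The 13 move together within a library, so they are not independent observations, and untreated OR1 libraries 1 and 2 share a host code. The log2 change was -1.45 for mt-Co1 (SE 0.60, limma adjusted p = 0.317), -1.39 for mt-Nd1 (limma adjusted p = 0.302) and -1.06 for mt-Cytb (limma adjusted p = 0.385). The median was -1.13 for the 13 and -0.15 for the nuclear members, beside 0.02 over all genes. Within the ABA45 name series, which holds 1 untreated OR1 library, the mitochondrial median was -0.82. Quantile normalization gave -0.55. Other cell markers moved in the same comparison: 7 macrophage markers summed to 94.1 to 141 CPM in OR1 and 201 to 372 CPM in MDA594, and red cell and skeletal muscle markers had median log2 changes of 1.56 and 3.6. Their part in the result was not tested. At unadjusted p, 7 mitochondrial members, 4 of complex I and 3 of complex IV, and 4 nuclear members passed lower (7.18% of genes), none passed higher (6.39%), and 0 of 94 were called (0.0367% of genes higher and 0.0735% lower). Of the nuclear members, 2 lay wholly above MDA594 (10.4% of genes) and 7 wholly below.

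The nuclear member with the smallest p in that comparison was Ndufa7, an accessory subunit of complex I. It had log2 CPM of 6.03, 6.84, 7.11 and 7.37 in untreated MDA594 and 4.70, 5.23 and 5.90 in untreated OR1. The groups did not overlap, and the log2 change was -1.42 (SE 0.44, limma adjusted p = 0.207). Ndufv3, a small subunit of the NADH-binding arm of complex I, followed at -0.76 (SE 0.29, limma adjusted p = 0.277). In treated OR1 libraries Ndufa7 stood at 5.64, 5.26, 6.82 and 6.0, overlapping the 6.27, 6.87 and 6.28 of treated MDA594.

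Untreated OR2, set against the same MDA594 libraries, had in the mitochondrial members a median log2 change of -0.74, beside -0.05 for the nuclear members and -0.01 over all genes. With the title number in the model the direction turned for the mitochondrial median, to 0.82, and the nuclear one was -0.39. Title numbers are largely confounded with line. That fit joins OR2 to MDA594 only through untreated MDA594 library 2 and treated OR2 library 1, which share a number, so it cannot decide the direction. Quantile normalization gave -0.25 for the mitochondrial members, and leaving out untreated OR2 library 2 gave -0.36. For 8 of the 13, both OR2 libraries lay below all 4 MDA594 ones (12% of genes), and mt-Co1 changed by -0.68, mt-Nd1 by -0.85 and mt-Cytb by -0.90. Such transcripts move together within a library, so the 8 are not independent observations. No member was called, where 0.129% of genes were higher and 0.0857% lower. At unadjusted p, 2 nuclear members passed lower (5.11% of genes) and 1 higher (5.48%), and 13 lay wholly below MDA594. The smallest p belonged to Uqcrfs1, the Rieske iron-sulfur protein of complex III, at -0.90 (SE 0.26, limma adjusted p = 0.163). Without untreated MDA594 library 1, 1 member was called in this comparison, and within the ABA45 name series, which leaves 2 libraries on each side, 10 were. The shares of all genes called in these settings are not given.

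Pooling over treatment, which averages the untreated and the treated difference between lines and was added after the members' values had been seen, gave the called changes. Ndufb8 fell in both resistant lines, and Uqcrfs1 fell in OR2. Ndufb8 had log2 CPM of 7.05, 7.88, 8.36 and 8.01 in untreated and 8.25, 9.05 and 8.45 in treated MDA594. It had 6.77, 6.99 and 7.45 in untreated and 7.03, 6.84, 7.44 and 6.81 in treated OR1, and 6.93 and 6.86 in untreated and 6.92, 6.94 and 7.06 in treated OR2. All 12 resistant libraries lay below 6 of the 7 MDA594 libraries, and untreated MDA594 library 1 lay among the resistant ones. The log2 change was -1.10 in OR1 (SE 0.22, limma adjusted p = 0.0119) and -1.23 in OR2 (SE 0.24, limma adjusted p = 0.00996). Both differences share the MDA594 libraries. With the title number as a term in the model Ndufb8 was no longer called, at -0.24 in OR1 (limma adjusted p = 0.924) and -1.24 in OR2 (limma adjusted p = 0.155). Title numbers are largely confounded with line, and that fit joins each resistant line to MDA594 through only 1 library on each side. The OR2 call was also lost with only the groups compared, at -1.22 (limma adjusted p = 0.0782). Without untreated MDA594 library 1 the change was -1.26 in OR1 (limma adjusted p = 0.00148) and -1.38 in OR2 (limma adjusted p = 0.00141). Within the ABA45 name series it was -1.14 in OR1 (limma adjusted p = 0.00265) and -1.44 in OR2 (limma adjusted p = 0.000261).

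Uqcrfs1 had log2 CPM of 6.29, 6.96, 7.28 and 7.22 in untreated and 6.55, 7.0 and 6.95 in treated MDA594, and of 6.02 and 5.96 in untreated and 6.17, 6.16 and 6.67 in treated OR2. Treated OR2 library 3 lay inside the MDA594 range and the other 4 OR2 libraries below it. The log2 change was -0.70 (SE 0.17, limma adjusted p = 0.0297), and in OR1 it was -0.29 (limma adjusted p = 0.280). Without untreated MDA594 library 1 it was -0.83 in OR2 (limma adjusted p = 0.00273) and -0.41 in OR1 (limma adjusted p = 0.0389), a call in both lines. The call was lost in 8 of 31 alternative analyses, including without treated MDA594 library 2 or 3, without untreated OR2 library 1 or 2 and without treated OR2 library 2.

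In all, 1 of 94 members was called lower in OR1, where 2.45% of genes were, and 2 in OR2, where 1.83% were; none was called higher (2.36% and 2.37% of genes). At unadjusted p, 13 members passed lower in OR1 (11.2% of genes) and 10 in OR2 (9.35%), and none higher in OR1 (11.7%) and 1 in OR2 (10.4%). No member had every OR1 library beyond every MDA594 library (0.827% of genes above and 0.496% below). In OR2 no member lay wholly above (1.71%), and Ndufb6 (-0.37, limma adjusted p = 0.320) and Cox6c (-0.29, limma adjusted p = 0.301), subunits of complexes I and IV, lay wholly below (1.22%). Without untreated MDA594 library 1 the called members numbered 9 in OR1 and 5 in OR2, and within the ABA45 name series 20 in OR2. The share of all genes called in these settings is not given, so the counts do not set the members apart from other genes. The nuclear members as a whole sat slightly low, with 71 of 81 negative in OR1 at a median of -0.18 and 61 of 81 in OR2 at -0.11, beside 0.01 and -0.02 over all genes. With the title number in the model these medians were 0.10 and -0.37. That fit joins each resistant line to MDA594 through only 1 library on each side. The mitochondrial median was -0.49 in each line, and with the title number -0.12 in OR1 and 0.90 in OR2. Without treated OR2 library 3 it was -0.14 in OR2. Of 7 macrophage markers, 4 were called lower in OR1 and 0 in OR2, and their part was not tested. In OR1 the median was -0.17 for complex I, -0.15 for II, -0.16 for III, -0.19 for IV and -0.16 for V.

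**Figure D3:**
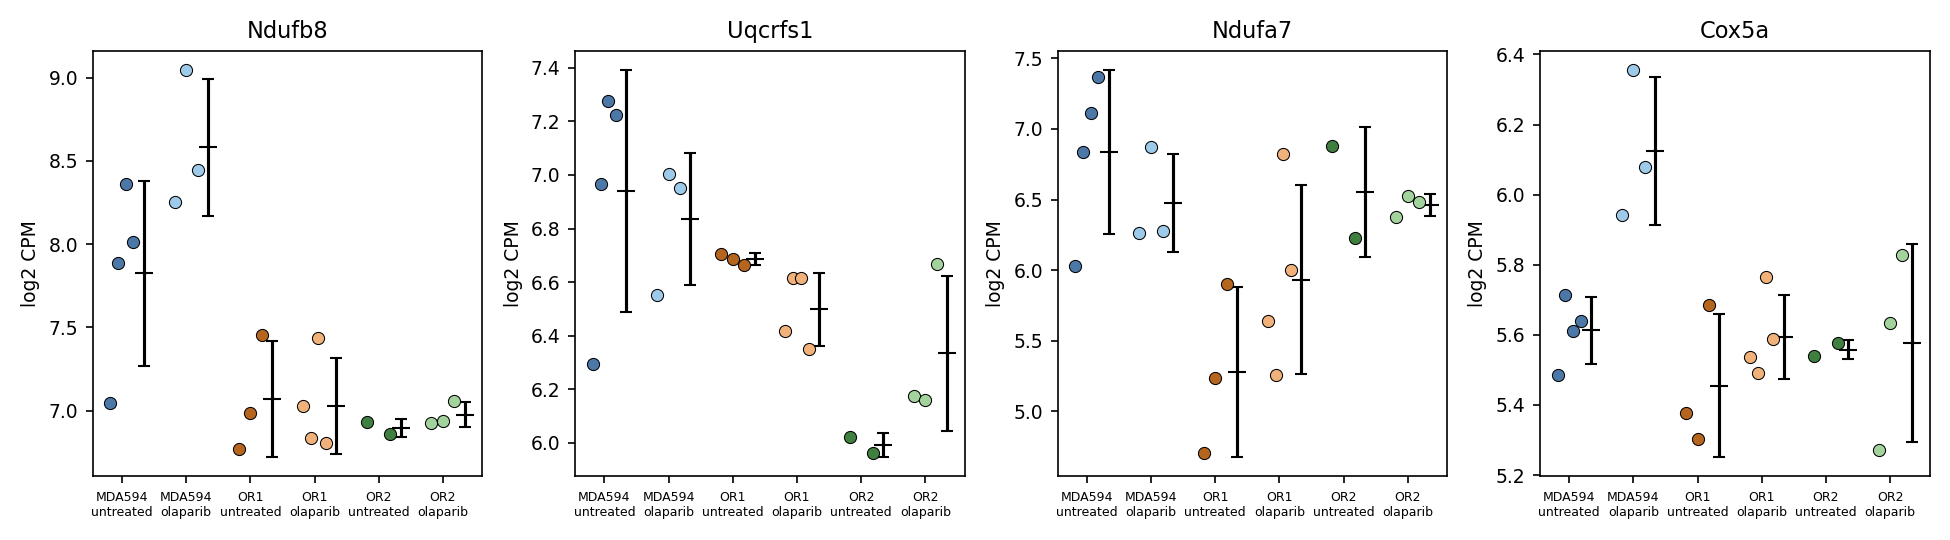
Log2 CPM of Ndufb8, Uqcrfs1, Ndufa7 and Cox5a in each library, by line and treatment. Ndufb8 lies between 6.77 and 7.45 in every resistant library and between 7.88 and 9.05 in every MDA594 library but one, at 7.05.

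The promoters of the called genes are shown beside those of 2 subunits with a motif of NRF1, a transcription factor of many nuclear respiratory genes: Sdha and Ndufs5, an accessory subunit of complex I chosen after its values were seen. Each is the 250 bases before the gene start from RefSeq on GRCm38.p6, whereas the counts were made on GRCm39. All 4 genes lie on the minus strand, and the sequences are written 5′ to 3′ on it. They are chr19:44555443-44555692 for Ndufb8, chr13:30545317-30545566 for Uqcrfs1, chr13:74350241-74350490 for Sdha and chr4:123718187-123718436 for Ndufs5. Capitals mark the NRF1 motif, which is GCGC, any base, then TGCGC, and ACGTG, the core of the site of the hypoxia factor HIF, on either strand.
Ndufb8: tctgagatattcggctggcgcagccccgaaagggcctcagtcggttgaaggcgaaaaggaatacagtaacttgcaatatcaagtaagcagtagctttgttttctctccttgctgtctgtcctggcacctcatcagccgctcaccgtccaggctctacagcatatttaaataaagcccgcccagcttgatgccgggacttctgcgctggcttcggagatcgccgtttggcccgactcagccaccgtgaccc
Uqcrfs1: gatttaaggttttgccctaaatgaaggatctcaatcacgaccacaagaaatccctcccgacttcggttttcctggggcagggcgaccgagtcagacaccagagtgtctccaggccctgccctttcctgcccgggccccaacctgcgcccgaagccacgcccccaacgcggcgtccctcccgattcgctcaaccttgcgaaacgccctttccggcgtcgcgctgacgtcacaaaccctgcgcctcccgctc
Sdha: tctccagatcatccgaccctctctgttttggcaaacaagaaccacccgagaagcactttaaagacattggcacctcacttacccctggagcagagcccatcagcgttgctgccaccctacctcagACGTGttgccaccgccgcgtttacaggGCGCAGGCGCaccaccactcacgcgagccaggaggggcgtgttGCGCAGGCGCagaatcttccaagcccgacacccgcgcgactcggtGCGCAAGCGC
Ndufs5: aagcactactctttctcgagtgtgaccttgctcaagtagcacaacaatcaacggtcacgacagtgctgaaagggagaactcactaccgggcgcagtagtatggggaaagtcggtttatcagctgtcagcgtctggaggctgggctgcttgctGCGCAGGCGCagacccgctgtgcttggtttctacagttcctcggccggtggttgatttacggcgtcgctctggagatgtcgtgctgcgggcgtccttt

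The Sdha window held 3 NRF1 motifs and 1 HIF core, the Ndufs5 window 1 NRF1 motif, and those of Ndufb8 and Uqcrfs1 neither. RefSeq promoters matched 65 of the members. Of their 70 promoters 14 held the NRF1 motif, against 3.74% of 32851 promoters, and 17.1% held CCGGAAG, an ETS motif, against 6.91%. The HIF core was in 21.4% against 16.6%. A match describes these letters and is not a bound site.

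Ndufb8 did not move alone on its chromosome. This look at neighbours followed the result. In OR1 all 10 nearest genes on chromosome 19, the related Scd1, Scd2, Scd3 and Scd4 among them, changed negatively, with a median of -0.73. Of the 10, 6 were called lower, where 2.45% of all genes were. In OR2 9 of 10 were negative, with Scd1 at 0.14 and a median of -0.89, and 4 were called lower (1.83% of genes). The 4 called in both were Hif1an (-0.84 and -1.12), Slf2, Mrpl43 (-1.01 and -0.99), a mitoribosome subunit, and Twnk (-0.71 and -0.86), the mitochondrial DNA helicase. The median deviation of the 10 neighbours from their own medians was -0.20 in untreated MDA594 library 1, 0.39 to 1.04 in the other 6 MDA594 libraries and -0.34 to 0.26 in the resistant libraries. With the title number in the model the neighbours' median was 0.07 in OR1 and 0.44 in OR2. That fit joins OR1 to MDA594 only through untreated MDA594 library 1 (-0.20) and treated OR1 library 1 (-0.05). It joins OR2 to MDA594 only through untreated MDA594 library 2 (0.39) and treated OR2 library 1 (0.26). The fit therefore cannot decide whether the neighbours differ between the lines. For Uqcrfs1, 5 of 10 neighbours were negative in OR2, with a median of -0.02, and 1 was called lower and 1 higher. The negative ones were Dusp22 (-0.63), E2f3 (-0.53), Exoc2 (-0.51, called), Cdkal1 (-0.39) and Irf4 (-0.12). The positive ones were Foxq1 (2.765, called), Mboat1 (0.65), Sox4 (0.43), Agtr1a (0.22) and Foxc1 (0.07).

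**Figure D4:**
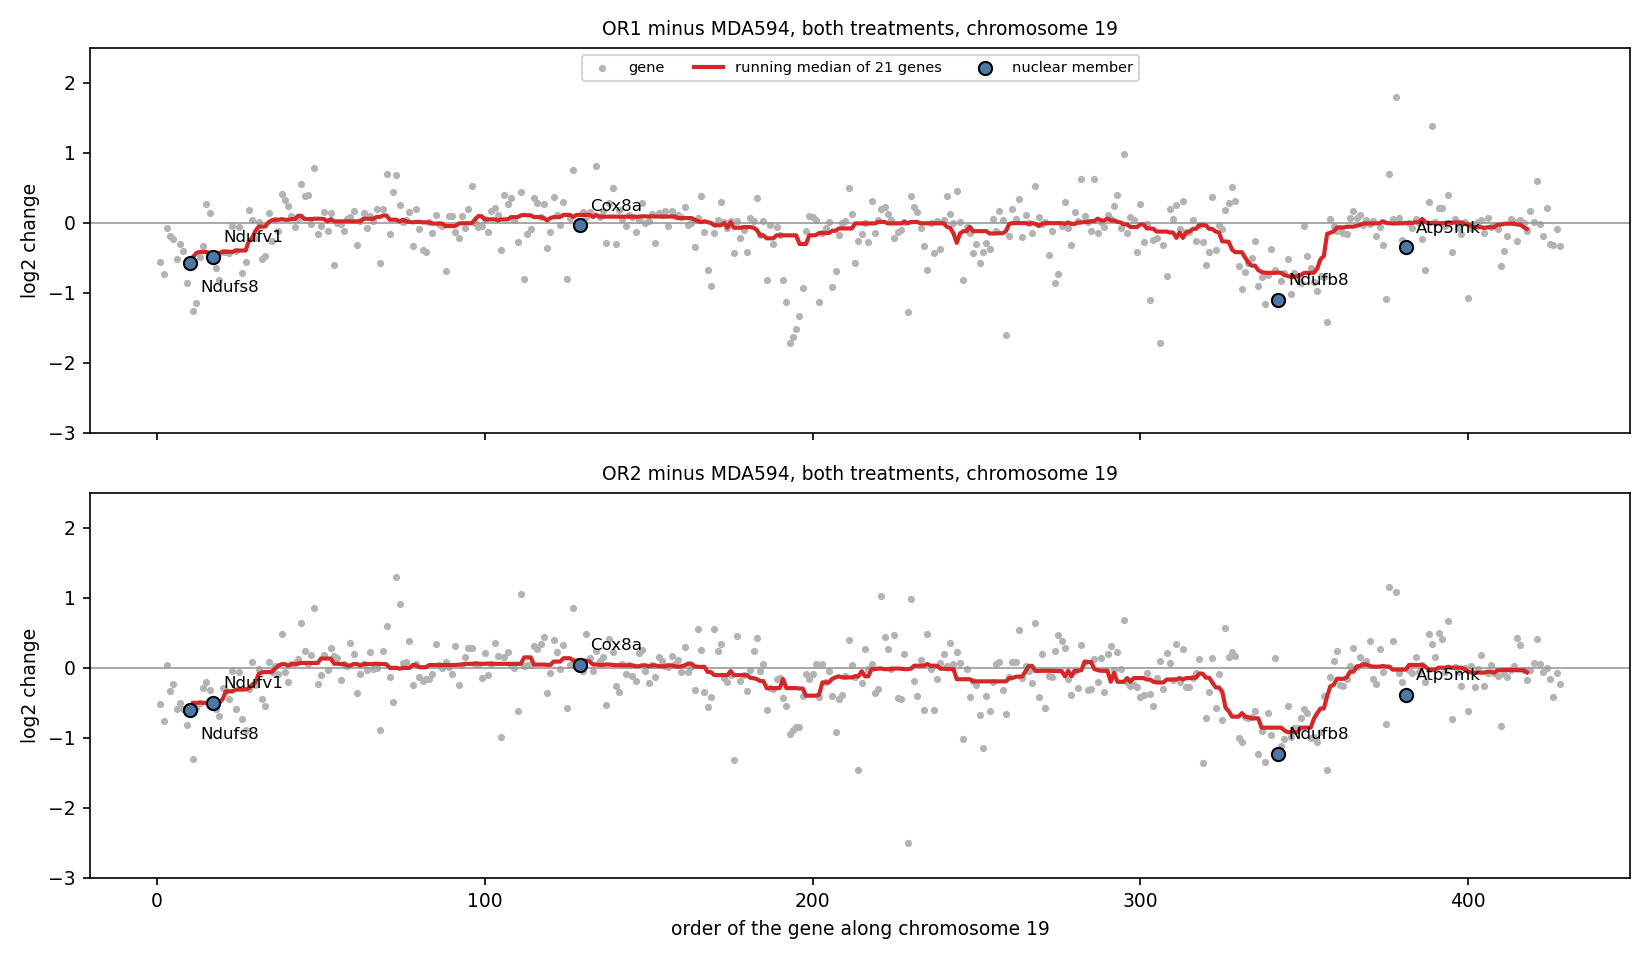
Log2 change against MDA594 over both treatments for the genes of chromosome 19 in gene order, for OR1 and OR2, with a running median of 21 genes and the members marked. The running median is -0.71 in OR1 and -0.86 in OR2 at Ndufb8, and 0.11 and 0.10 at Cox8a.

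Members near the start of chromosome 19 were low as well. Ndufs8, an iron-sulfur subunit of complex I, changed by -0.57 in OR1 (limma adjusted p = 0.109) and -0.60 in OR2 (limma adjusted p = 0.146), and Ndufv1, which binds NADH, by -0.49 and -0.50. The running median at Ndufv1 was -0.43 and -0.50. Cox8a, a complex IV subunit further along, changed by -0.04 and 0.04.

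Chromosome 17 was low across most of its genes in OR1. Its 667 genes that are no members had a median log2 change of -0.52, and the 6 members there (Ndufa7, Ndufa11, Ndufb10, Ndufv2, Ndufv3 and Cox7a2l) one of -0.60, all negative. In OR2 the medians were -0.25 and -0.13. The 70 nuclear members outside chromosomes 17 and 19 had a median of -0.15 in OR1, with 60 negative, and of -0.11 in OR2, with 52 negative. Chromosome 8 was low in OR2 too, at -0.18 over 720 genes and -0.37 over its 3 members. The median deviation of its other genes was -0.42 in untreated OR2 library 1 and -0.08 to 0 in the other OR2 libraries. Outside chromosomes 8, 17 and 19 the OR2 median of 67 members was -0.11, with 49 negative. Over 31 alternative analyses the OR1 median stayed between -0.80 and -0.30 for the 6 members and between -0.62 and -0.42 for the other genes.

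**Figure D5:**
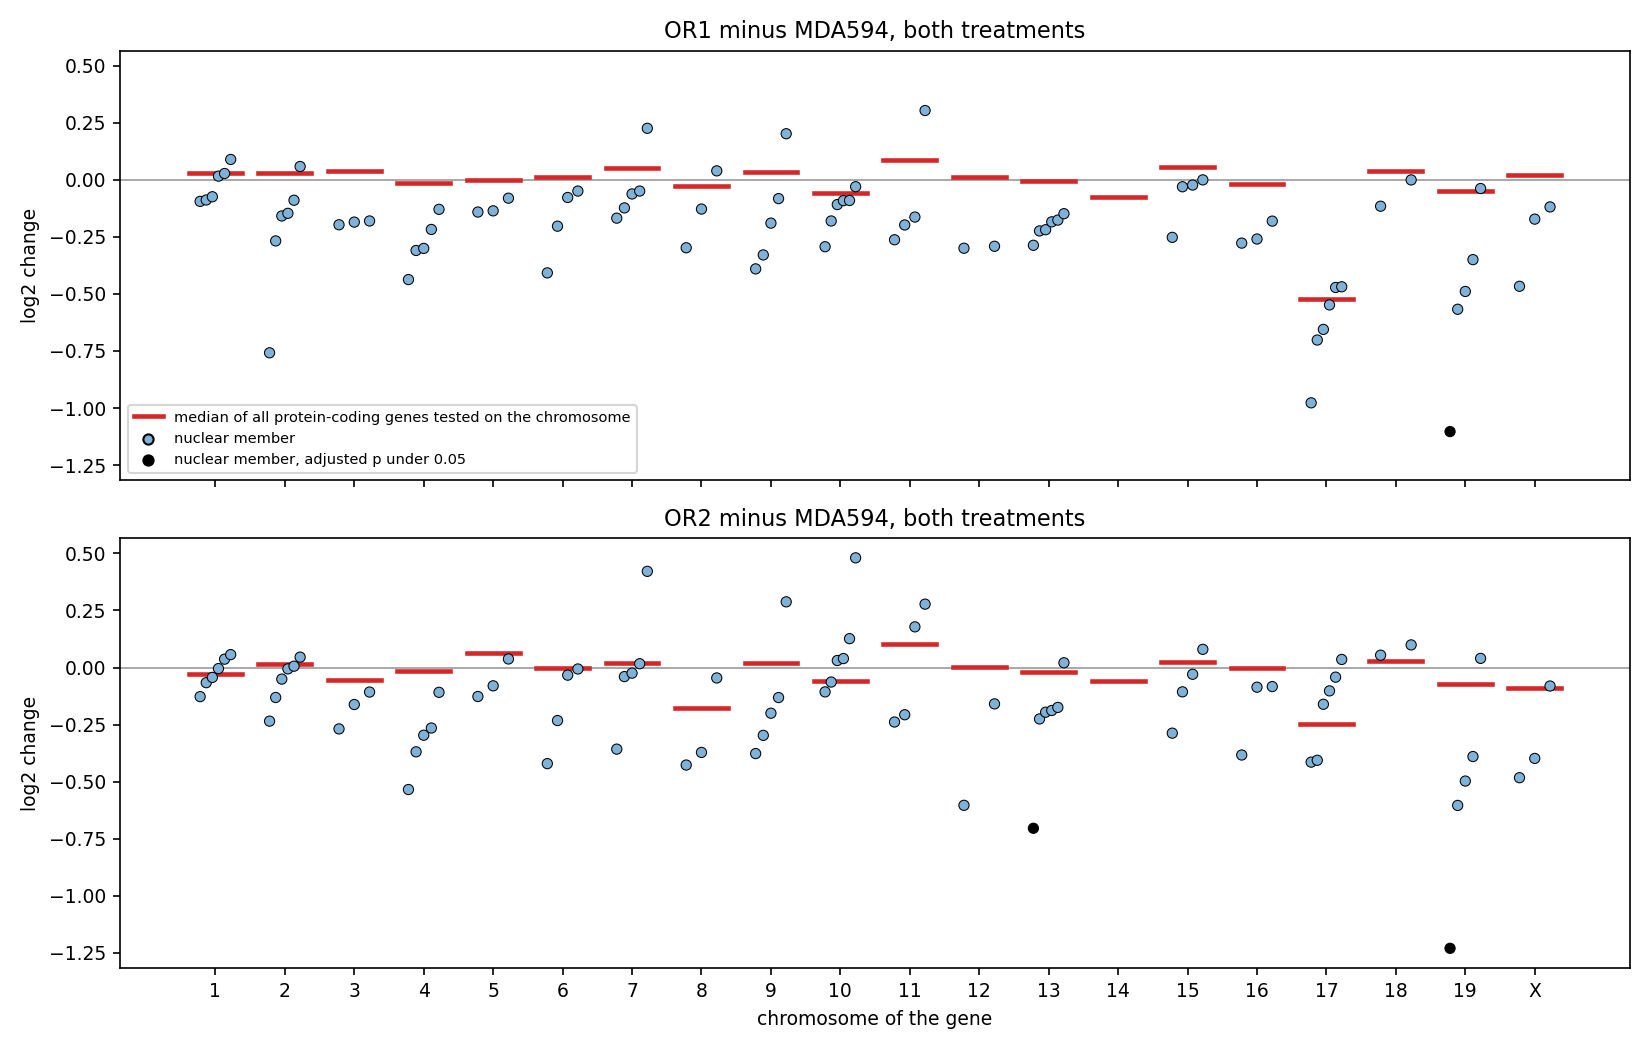
Log2 change of each nuclear member against MDA594 over both treatments, by chromosome, for OR1 and OR2; red bars are the median of all tested genes of the chromosome. On chromosome 17 the bar lies at -0.52 in OR1 and -0.25 in OR2.

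The chromosome 17 level differed between OR1 tumours. The median deviation of its other genes was -0.52, -0.52 and -0.05 in the untreated OR1 libraries and -0.43, -0.53, 0.20 and -0.06 in the treated ones, and that of the 6 members -0.91, -0.80 and 0.02, and -0.58, -0.77, 0.29 and -0.23. Treated library 3 was the highest for both, and untreated libraries 1 and 2 and treated library 2 were among the lowest. Untreated MDA594 library 1, at -0.01 and -0.34, was the lowest of the MDA594 libraries. Without treated OR1 library 3, Ndufa7, Ndufb8 and Ndufv2 were called lower in OR1.

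The tissue-restricted paralogs were scarce. Cox4i2, the alternative form of the complex IV subunit Cox4i1, exceeded a log2 CPM of 0 in 2 libraries only, treated MDA594 library 3 at 0.16 and untreated OR2 library 2 at 0.95. It passed the filter, which asked for 2 such libraries, only through these, so untreated OR2 library 2 decided that it was tested at all. Its change with olaparib in OR2, -1.58 (limma adjusted p = 0.791), is therefore a description only. This change rests mostly on untreated library 2, with 155 reads against 44 in untreated library 1 and 26, 53 and 35 in the treated libraries. Pericyte markers summed to 369 to 495 CPM in untreated OR2 and 251 to 370 CPM in treated OR2, with a median log2 change of -0.995. In untreated MDA594 they summed to 147 to 244 CPM. Their part in the Cox4i2 change was not tested. Ndufa4l2, a hypoxia-linked relative of a complex IV subunit, ranged from -0.37 to 3.21 with no group apart. Cox7a1, the heart and muscle form, peaked at 2.01 in untreated OR1 library 3 and stood at 0.22 in treated MDA594 library 3, the one library with over 1000 CPM of skeletal muscle markers (1958 CPM).

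Lists of genes that serve these complexes were described over both treatments, all compared with the same MDA594 libraries. Of 48 assembly factors, Ndufaf3, for complex I, rose by 0.64 in each line and Cox15, which makes the heme of complex IV, fell by 0.70 in each. Of 78 mitoribosome genes 0 rose and 6 fell in OR1, and 2 rose and 4 fell in OR2, where 2.36% of all genes rose and 2.45% fell in OR1 and 2.37% rose and 1.83% fell in OR2. Of 25 genes of mitochondrial DNA and RNA upkeep, Polg2, a subunit of the mitochondrial DNA polymerase, rose by 0.62 and Twnk and Lrpprc fell in OR1, and Twnk fell in OR2. Mrpl21, Cox15, Mrpl43 and Twnk, 4 of the genes that fell in each line, lie on chromosome 19. No gene of the citric acid cycle, regulator or electron carrier list was called.

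Of 17 hypoxia and glycolysis genes, Bnip3 (0.70), a mitophagy receptor, and Ndrg1 (1.3) rose and Car9 (-2.75), a carbonic anhydrase, fell in OR1. In OR2, Egln3 (1.21), Ndrg1 (1.64), Bnip3 (0.86) and the glucose transporter Slc2a1 (0.85) rose. Over all genes, 2.36% rose and 2.45% fell in OR1, and 2.37% rose and 1.83% fell in OR2. In the planned comparisons no gene of any of these lists was called. After olaparib the hypoxia list had a median of -0.64 in MDA594, -0.11 in OR1 and -0.48 in OR2. At unadjusted p under 0.05, 7 of 17 were lower in MDA594, beside 8.07% of all genes. In OR2 3 of 17 were lower (3.36% of genes), and in OR1 0 were (1.59%).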

How the data were processed

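Poly(A) RNA of 20 tumours was sequenced, and 19 libraries in 6 groups were compared. The deposited values are log2 CPM made by the authors. Per the submitters' processing notes, STAR 2.7.10a, RSEM 1.3.1, limma and GRCm39 were used; the annotation and gene filter are not given in the sources used here. The antilogs gave whole reads in 100% of values at a tolerance of 0.01 reads.

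Members and lists were chosen with earlier results of these data known; the pooled comparisons over both treatments and the views by chromosome were added after the values were seen. The 16330 of 16411 genes above a log2 CPM of 0 in 2 or more libraries were tested. The model was limma 3.58.1 in R 4.3.3 with 1 mean per group, a mean trend, a correlation of 0.404 between libraries of a host code and 13 residual degrees of freedom. That a shared code means a shared host is inferred from the titles. Tests were two-sided, with Benjamini-Hochberg adjustment over all genes and a threshold of 0.05. The model was tested on simulated data.

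The genes named were all mitochondrial members, the 2 nuclear members with the largest called rises and falls per comparison (or smallest p), fixed core subunits and paralogs, and the 2 smallest p of each other list. Hif1an, Slf2 and the other neighbours of Ndufb8 and Uqcrfs1 outside the lists were named after their values were seen. So were Ndufs5, Ndufs8, Ndufa11, Ndufb10, Ndufv2, Cox8a, Cox7a2l, Ndufb6, Cox6c and the called list genes beyond these. Chromosomes and gene order came from GENCODE M21 on GRCm38 by Ensembl identifier, with 81 of 81 nuclear members matched. Alternatives covered the filter, constant, normalization, model, host codes, library name series, title number and leaving out libraries. The labels name no batch.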

Additional observations from a re-analysis of the deposited data

Results flagged for a closer look

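Among 56 groups of 4 libraries looked at, 2 held a library far from the other 3; chance gives about 1 in 20. The nuclear members took 0.633% of reads in untreated MDA594 library 1, where the other 3 untreated MDA594 libraries had 0.789% to 0.814%. Ndufa4l2 stood at a log2 CPM of 3.21 in treated OR1 library 4 and at 0.60 to 0.96 in the other treated OR1 libraries.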

How the results depend on the processing

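Of the alternative values of called counts and medians, 801 moved by less than the spread between libraries (medians) or 1.5 times (counts) and 36 moved by more. Called counts of members under the alternatives are given without the share of all genes called in the same setting. Of 558 alternative medians 24 had another sign than the main one, 5 mitochondrial and 19 nuclear; the nuclear ones had main medians within 0.18 of 0. Without the correlation between host codes, 1 member was called with olaparib in MDA594, 1 in untreated OR1 and 1 in untreated OR2, and 10 and 5 over both treatments in OR1 and OR2. With only the groups compared, OR2 over both treatments had 0; the olaparib comparison in OR2 was then fitted without the code correlation, which could not be estimated. With the title number in the model, 3 were called with olaparib in MDA594, 1 in the OR1 response against that of MDA594 and 0 in either line over both treatments. Its nuclear medians were 0.089 in untreated OR1, -0.39 in untreated OR2, and 0.10 and -0.37 over both treatments, and its mitochondrial medians 0.82 in untreated OR2 and 0.90 in OR2 over both treatments. Within the ABA45 name series, 10 were called with olaparib in MDA594, 4 in untreated OR1, 10 in untreated OR2, 1 in the OR2 response, and 8 and 20 over both treatments, with a nuclear median of -0.23 with olaparib in OR1. Quantile normalization gave 0.65 for the mitochondrial median of the OR1 response. Without the library rich in muscle markers, OR2 over both treatments had 1. Leaving out each library in turn gave 0 to 1 called in untreated OR2, 1 to 9 in OR1 and 1 to 5 in OR2 over both treatments, and mitochondrial medians of -0.57 to 0.55 with olaparib in OR2 and 0.041 to 1.12 for the OR2 response. The cause was not tested. No analysis paired by host was possible because no host code holds both an untreated and a treated library. The title numbers, whose meaning the labels do not give and which join untreated and treated libraries only in part, were fitted as the term above. They are largely confounded with line. A shared number joins MDA594 to OR1 only in untreated MDA594 library 1 and treated OR1 library 1. It joins MDA594 to OR2 only in untreated MDA594 library 2 and treated OR2 library 1. With 2 untreated OR2 libraries of 1 host code, small changes could not be detected there.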
